A study of Mus musculus with 19 samples.

Results

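The genes described here belong to the germ granule and to the piRNA pathway, and were followed through a study of where the protein SPEN sits on chromatin in the mouse testis. They are Ddx4, Dazl, Piwil1, Piwil2, Piwil4, Mael, Tdrd1, Tdrd9, Mov10l1 and Asz1. The genes were taken by name. Their peaks were the deposited peaks that the authors' annotation assigned to one of these genes within 5 kb, or within 50 kb, of a transcription start site (TSS). All 10 genes are among the 21031 protein-coding genes with a RefSeq mRNA that served as the gene universe. Of the 80795 peaks in the 19 deposited lists, 21 were assigned to them, 18 within 50 kb and 2 within 5 kb.

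Germ granules are membrane-free clusters of RNA and protein in the cytoplasm of germ cells, such as the intermitochondrial cement of spermatocytes and the chromatoid body of spermatids. PIWI proteins, loaded there with small piRNAs, silence transposons and cleave other transcripts. SPEN binds RNA and recruits transcriptional corepressors.

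SPEN sites were mapped with ChIP-seq (sequencing of immunoprecipitated chromatin) in cells of FVB/N male mice aged 10 to 16 weeks, with 1 library per condition made from 5 to 6 pooled precipitations. In mixed testicular cells an antibody against an internal part of SPEN was used after heat shock at 38 °C or 43 °C, in each case for 15 min, for 30 min, and for 30 min with 2 h or 4 h of recovery, and in cells left untreated at 32 °C. An antibody against the N-terminal part was used in testicular cells at 38 °C for 15 min, at 38 °C for 30 min with 2 h of recovery, and in untreated cells. The internal antibody was also used in isolated spermatocytes (purity of at most 80%, by the labels' protocols), heated at 43 °C for 30 min with 0, 2 or 4 h of recovery, or untreated. Background came from 3 libraries: rabbit IgG and input DNA of testicular cells, each pooled over treatments, and input DNA of spermatocytes. Peak lists hold no expression values, so the labelled cell types could not be checked against marker genes.

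The lists differed greatly in length, and the depth behind them is unknown because the files give no read totals. Spermatocytes at 4 h of recovery had 9707 peaks and untreated testicular cells 29315 with the internal antibody (called the untreated testis list from here on), while the other 14 SPEN lists held 1682 to 3590. A peak was called antibody-specific when no base of it fell in a peak of IgG or the inputs. The term states only this lack of overlap. The background lists were short too, with 2303 peaks in IgG, 2924 in the testicular input and 1641 in the spermatocyte input. The share of peaks that lay at background was 15.9% in the spermatocyte list after 4 h and 6.63% in the untreated testis list. It was 59.8% to 80.2% in the 14 shorter ones. With 1 library per condition there is no replicate error, and every comparison below is between these libraries, not between conditions.

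The promoter sequences are given first, because the peaks nearest to a start site of any of these genes are those of Ddx4 and Dazl. They come from RefSeq (GRCm38.p6, the assembly that mm10 names). A window was found for 9 of the 10 genes, and none for Piwil2. Each sequence below is the 250 bases before the TSS, written 5′ to 3′ on the strand of the gene, which is the minus strand for all 4. Capitals mark the E-box CACGTG, which reads the same on both strands and is known as a binding site of basic helix-loop-helix proteins such as MAX and USF1. The 4 were chosen to show each combination: Ddx4 (chr13:112652311-112652560) with a peak and an E-box, Dazl (chr17:50293621-50293870) with a peak and no E-box, Mael (chr1:166238745-166238994) with an E-box and no peak, and Asz1 (chr6:18109062-18109311) with neither.
Ddx4: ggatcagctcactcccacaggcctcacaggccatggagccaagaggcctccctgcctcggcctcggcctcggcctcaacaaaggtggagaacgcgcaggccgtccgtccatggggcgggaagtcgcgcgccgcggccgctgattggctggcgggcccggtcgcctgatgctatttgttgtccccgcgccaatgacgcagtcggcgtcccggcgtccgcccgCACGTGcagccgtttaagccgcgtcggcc
Dazl: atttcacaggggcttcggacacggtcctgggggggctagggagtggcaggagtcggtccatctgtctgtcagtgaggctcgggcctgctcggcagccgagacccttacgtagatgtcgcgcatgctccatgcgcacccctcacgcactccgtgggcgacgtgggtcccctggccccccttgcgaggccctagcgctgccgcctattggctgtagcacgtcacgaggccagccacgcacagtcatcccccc
Mael: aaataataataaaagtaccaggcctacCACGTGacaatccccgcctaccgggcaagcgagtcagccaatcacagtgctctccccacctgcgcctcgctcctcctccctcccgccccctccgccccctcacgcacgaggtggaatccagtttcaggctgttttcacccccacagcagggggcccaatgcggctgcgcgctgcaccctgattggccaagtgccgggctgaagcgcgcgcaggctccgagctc
Asz1: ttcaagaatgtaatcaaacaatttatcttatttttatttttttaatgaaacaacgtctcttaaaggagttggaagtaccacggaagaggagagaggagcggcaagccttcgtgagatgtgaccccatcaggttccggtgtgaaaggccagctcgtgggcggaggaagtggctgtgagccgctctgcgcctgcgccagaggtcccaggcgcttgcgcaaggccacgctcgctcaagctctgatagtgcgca
The E-box of Ddx4 lies 29 to 24 bases before the TSS, inside the peak described next, and that of Mael 223 to 218 bases before it.

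Ddx4 encodes the RNA helicase VASA, a core germ granule protein that marks germ cells. Only the untreated testis list had a peak at its start, and the heat-shocked and the other untreated libraries had none there. That peak covered 554 bp of chromosome 13 (mm10, 112651809 to 112652362), annotated as intron 1 of 20 and CpG island, 225 bp downstream of the TSS. It reached from 52 bp upstream to 501 bp downstream of the TSS and so covered the last 52 of the printed bases. Its score was 216.43, in the units of the authors' peak caller, and 3.89% of the 29315 peaks in that list scored higher.

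The other 18 lists all lacked a peak at the Ddx4 start. The 8 testicular libraries heated and precipitated with the internal antibody had their nearest peak 59589 to 74004 bp from it. The 3 N-terminal libraries had theirs at 59532 to 73912 bp, the 4 spermatocyte libraries at 47485 to 73945 bp, and IgG and inputs at 73530 to 73949 bp. In 15 of the 18 lists this nearest peak lay in LSU-rRNA repeats inside Il31ra, and in the other 3 in introns of Slc38a9. The main rRNA site, at 112578050 to 112578413 on chromosome 13 and 19920 to 20027 bp past the end of Ddx4, was called in all 19 lists, IgG and inputs included. Ddx4 had 1 further peak in the untreated testis list, in intron 3, 13067 bp downstream of the TSS in an RMER1B repeat (score 69.04, with 41.8% of the list scoring higher).

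Dazl encodes an RNA-binding protein that regulates translation in germ cells and is required for their development. Here, too, only the untreated testis list had a peak near the start, and the heat-shocked and the other untreated libraries had none. That peak covered 473 bp of the first intron on chromosome 17 (50292846 to 50293318), annotated as CpG island. Its score of 193.92 was exceeded by 4.84% of the list. Its near edge lay 302 bp and its far edge 774 bp downstream of the TSS, so it stopped short of the promoter window. No other list had a peak within 100 kb of the Dazl start. The nearest one, from spermatocytes at 4 h of recovery, lay 102259 bp away. In the other 17 libraries it was 126362 to 126490 bp away, at a background site. The untreated testis list also held 2 weaker upstream peaks assigned to Dazl within 50 kb. They lay 13721 bp upstream in an RMER15 element (score 60.93) and 43427 bp upstream in an MLT2F element (score 50.73), both remnants of ERVL retroviruses.

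**Figure D1:**
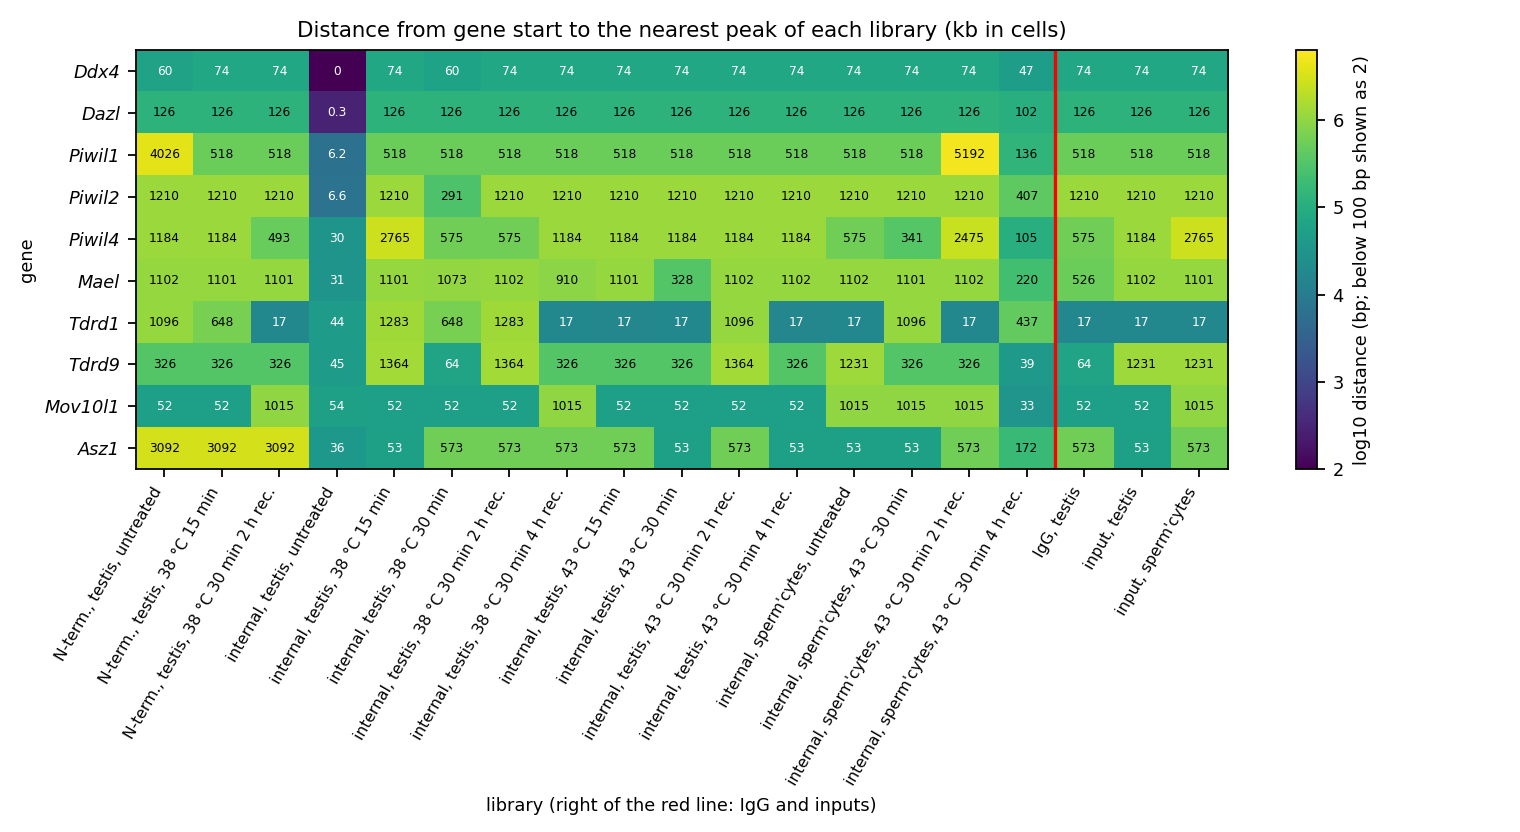
Distance from the TSS of each gene to the edge of the nearest peak in each of the 19 libraries, in kb in the cells and as log10 bp in the colour scale. Where a gene has several start sites the nearest was used, and for Piwil2 the nearer gene end. Ddx4 (0 kb) and Dazl (0.302 kb) stand out in the untreated testis list, and the same far sites recur in the other columns.

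Within 5 kb, 2 of the 10 genes (Ddx4 and Dazl) had an antibody-specific peak in the untreated testis list, in which 20.2% of all 21031 protein-coding genes had one. The share of the 10 genes was thus close to that of genes at large. In the other 15 SPEN libraries together none of the 10 genes had one, where 4.26% of all genes did. Spermatocytes at 4 h of recovery accounted for most of these (3.48% of all genes, none of the 10), and the 14 shorter lists together held 1.11% of all genes and none of the 10. IgG and inputs had no peak of any kind within 5 kb of the 10 genes. The share of all genes with one was 0.428% in IgG, 0.59% in the testicular input and 0.361% in the spermatocyte input.

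Within 50 kb, 3 of the 10 genes (Ddx4, Dazl and Piwil1) had an antibody-specific peak in the untreated testis list, against 37.9% of all genes. In the other 15 SPEN libraries 2 genes had one (Tdrd1 and Mov10l1), against 15.8% of all genes. The 14 shorter lists gave 1 of them (Tdrd1), against 5.12%. Over all 16 SPEN libraries 5 of the 10 genes had one, against 43.4%. Such peaks came from 4 libraries: testicular cells heated at 43 °C (for 15 min, or for 30 min with 4 h of recovery), spermatocytes at 4 h of recovery, and the untreated testis list with 6 peaks. The 10 antibody-specific peaks behind these counts were 0.0218% of the 45810 such peaks in the 16 SPEN lists (exact Clopper-Pearson 95% interval 0.0105 to 0.0401%, counting error only). That interval takes peaks as independent, although 6 came from 1 list and 3 lay together in Tdrd1. When every peak centred within 50 kb of a RefSeq start counted, whichever gene it was assigned to, 9 of the 10 genes had an antibody-specific peak in the untreated testis list, against 66% of all genes, and 4 in the other 15 SPEN libraries, against 32.3%. For the 4178 genes without a promoter window, both gene ends stood in for the start, and Piwil2 was treated in the same way. IgG and both inputs each had a peak within 50 kb of 1 of the 10 genes, Tdrd1, against 2.42% of all genes in IgG, 2.81% in the testicular input and 2.05% in the spermatocyte input.

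**Figure D2:**
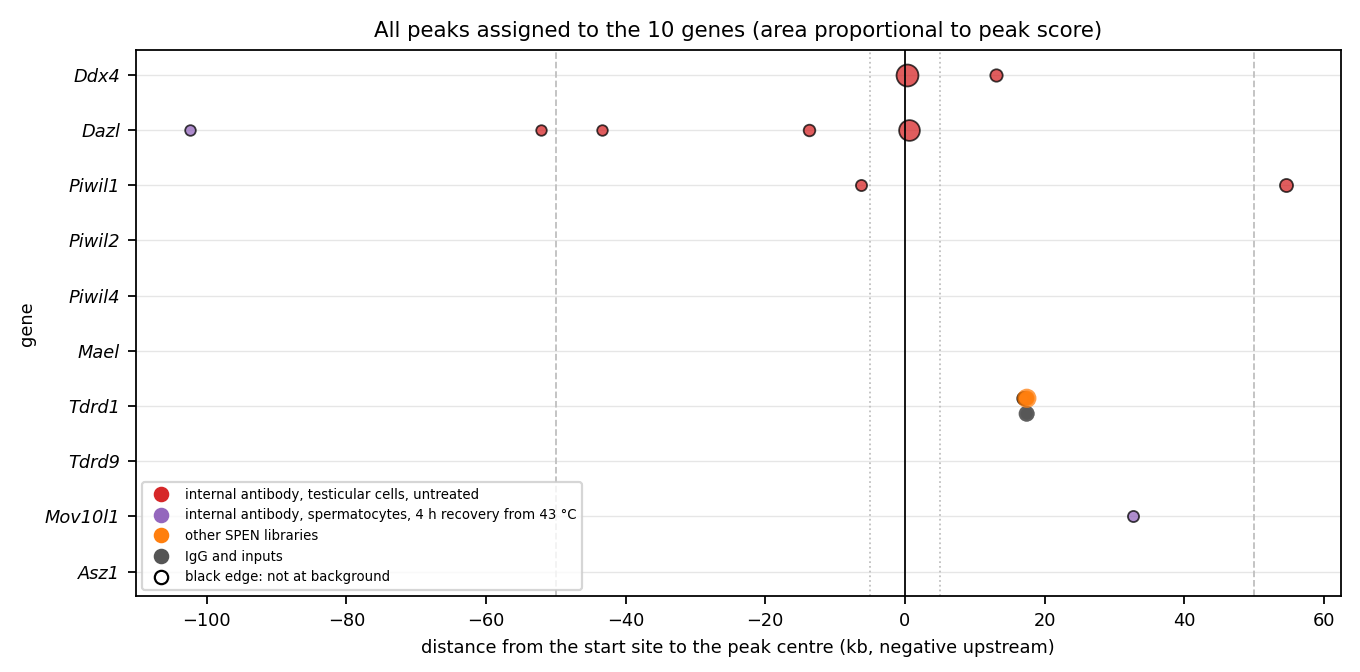
All 21 peaks assigned to the 10 genes, by distance of the peak centre from the TSS in kb. The area of a circle is proportional to the peak score, and a black edge marks peaks that share no base with a peak of IgG or the inputs; dotted lines stand at 5 kb and dashed lines at 50 kb. Among the peaks of untreated testicular cells (red) those at the starts of Ddx4 and Dazl are the largest, and the Tdrd1 peaks of SPEN libraries (orange) and of IgG and inputs (grey) lie together.

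The peaks of Ddx4 and Dazl stood high among promoter peaks of the untreated testis list. Of the 4250 protein-coding genes with an antibody-specific peak within 5 kb in that list, 40 had a higher-scoring one than Ddx4 (0.941%) and 64 a higher-scoring one than Dazl (1.51%). The median of the highest score over these genes was 66.9. That list had 944 antibody-specific peaks within 5 kb of a TSS that were annotated as CpG island. Among them, 8 scored higher than the Ddx4 peak and 15 higher than the Dazl peak. Both peaks were also wide, with 2.44% of the CpG island peaks wider than that of Ddx4 and 4.13% wider than that of Dazl, where the median width was 228 bp. These positions describe 1 library, and no test was made of them.

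Few strong promoter peaks of this kind were seen in a second list. In all, 16 antibody-specific CpG island peaks near a TSS scored at least as high as that of Dazl, its own included. Of these, 13 overlapped no peak of any other library. The other 3 were found elsewhere, of which 2 were shared with the testicular library after 30 min at 38 °C (12.5%, exact interval 1.55 to 38.3%) and 2 with spermatocytes at 4 h of recovery. Another 5 libraries shared 1 each, and 11 of the 18 shared none (exact upper bound 20.6%). IgG and both inputs are among the 11 by definition, since antibody-specific peaks share no base with them. The bound therefore holds no information about IgG and inputs. Other genes with an antibody-specific peak within 5 kb in the untreated testis list, and in none of the other 15 SPEN lists, numbered 3866. The closest to Ddx4 in score were Btbd1 (216.06) and Otud7a (215.89), and the closest to Dazl were Capn7 (193.45) and Ccser2 (194.6). The centres of these 4 peaks lay 161 to 451 bp downstream of the TSS.

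**Figure D3:**
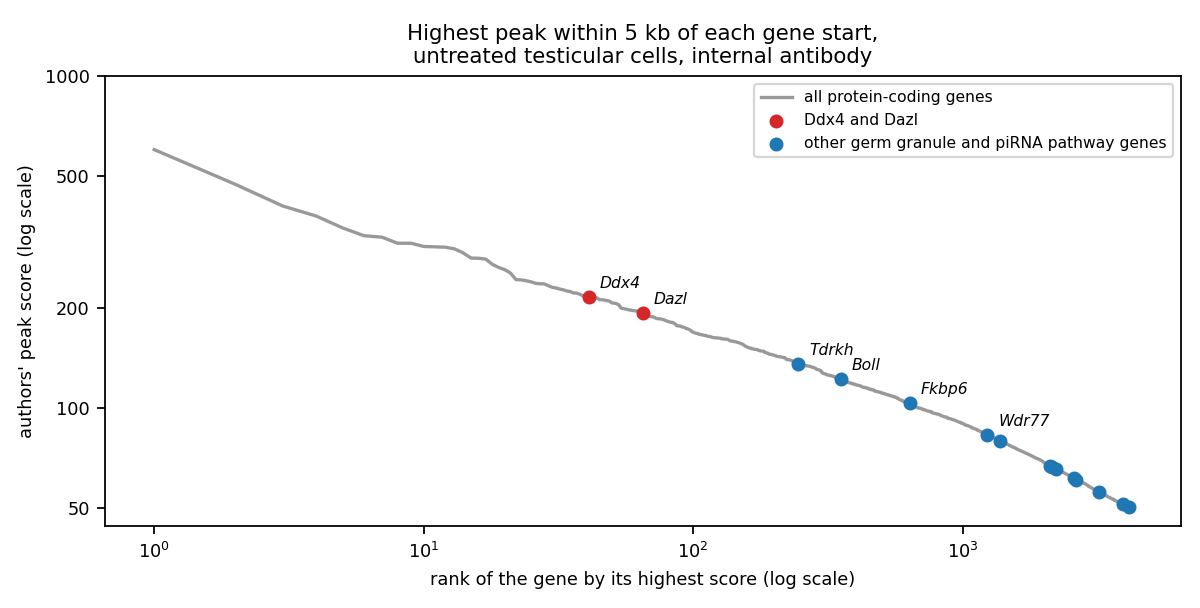
Highest score of an antibody-specific peak within 5 kb of each of 4250 protein-coding genes in the untreated testis list, against the rank of the gene, both on log scales. Ddx4 (216.43) and Dazl (193.92), in red, lie near the upper end. Other germ granule and piRNA pathway genes, in blue, range from Tdrkh (136.3) to Rnf17 (50.46).

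Among the PIWI genes, Piwil1 came nearest to a peak. Piwil1 encodes MIWI, the PIWI protein of pachytene piRNAs in spermatocytes and spermatids. In the untreated testis list it had an intergenic peak outside repeats 6230 bp upstream of its TSS on chromosome 5 (128729937 to 128730096), with a score of 55.75 that 70.3% of the list exceeded. This is the peak nearest to the 5 kb limit from outside, as the Dazl peak at 538 bp is the nearest from inside. The nearest Piwil1 peak in any other library was 136407 bp away.

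Piwil2 encodes MILI, a cytoplasmic PIWI nuclease, and Piwil4 encodes MIWI2, a nuclear PIWI protein that directs DNA methylation of transposons in fetal germ cells. Neither gene had an assigned peak in any library. The nearest peak of the untreated testis list to Piwil2 lay 6638 bp outside the nearer edge of the gene, which stood in for its TSS. It was at a start site assigned to Mir320 (chromosome 14, 70443536 to 70443831, score 53.13), and a further one in Phyhip scored 53.15. For Piwil4 the nearest peak was 30126 bp from a start site, at the promoter of 1700012B09Rik (chromosome 9, 14770798 to 14771097, score 79.35). In the other 18 libraries the nearest peak was 291056 bp from Piwil2 and 104765 bp from Piwil4.

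Mael and Asz1 also lacked assigned peaks. Mael encodes maelstrom, an HMG-box protein needed for transposon silencing, and its nearest peak of the untreated testis list lay 30694 bp from its TSS in exon 2 of Ildr2 (score 62.01). Asz1 encodes GASZ, a protein of the mitochondrial outer membrane that holds the intermitochondrial cement together. Its body contained 1 peak, in an L1Md_T LINE-1 element (chromosome 6, 18063123 to 18063315, score 59.47), which the annotation assigned to the neighbouring Wnt2. That peak, too, was in the untreated testis list.

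At Tdrd1 the peaks lay inside the gene and in both SPEN and background libraries. Tdrd1 encodes a Tudor-domain scaffold that binds methylated arginines of PIWI proteins, and 11 of the 18 peaks within 50 kb were its own. All 11 lay in intron 11 of 25, in 841 bp of chromosome 19 (56847498 to 56848338), 16888 to 17500 bp downstream of the start site used by the annotation. That start site (56830712) is the most downstream of 3 RefSeq starts for Tdrd1, the first of which is at 56826209. No repeat was annotated at the 11 peaks.

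All 3 background libraries had a peak at this place. The SPEN libraries that shared bases with them were testicular cells at 43 °C for 30 min (score 166.42), testicular cells with the N-terminal antibody at 2 h of recovery from 38 °C (106.74), untreated spermatocytes (85.48), testicular cells at 4 h of recovery from 38 °C (72.97) and spermatocytes 2 h after 43 °C (72.26). The input of spermatocytes scored 114.6, the input of testicular cells 110.17 and IgG 65.9. Because the scale of the scores is not stated, they are better read within each list. The share of the own list that scored higher was 18.9% for the SPEN library at 43 °C for 30 min and 29.2% for the N-terminal one, and 52% to 60.3% for the other 3. It was 30.4% for the testicular input, 38% for the spermatocyte input and 65.9% for IgG, so the positions overlapped, with 2 of the 5 SPEN peaks placed above the best background peak. These 8 peaks had 126 bp in common (56848118 to 56848243).

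The remaining 3 Tdrd1 peaks were antibody-specific by the 1 bp rule and lay just upstream. Testicular cells at 4 h of recovery from 43 °C with the internal antibody had 2 of them, at 56847498 to 56847702 (score 71.51) and 56847711 to 56847926 (score 73.24). Testicular cells after 15 min at 43 °C had the third, at 56847550 to 56847683 (score 52.77). In each of these 2 lists Tdrd1 was the 1 of the 10 genes with such a peak within 50 kb, against 0.747% of all genes at 4 h of recovery and 0.632% after 15 min. The 3 peaks stood 274, 50 and 293 bp from the nearest background peak, less than the longest of the 100 to 500 bp fragments to which the chromatin was sheared per the labels. When a background peak within 500 bp also counted, no Tdrd1 peak remained antibody-specific. The untreated testicular libraries of both antibodies had no peak in this intron, and neither had 7 other SPEN libraries.

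**Figure D4:**
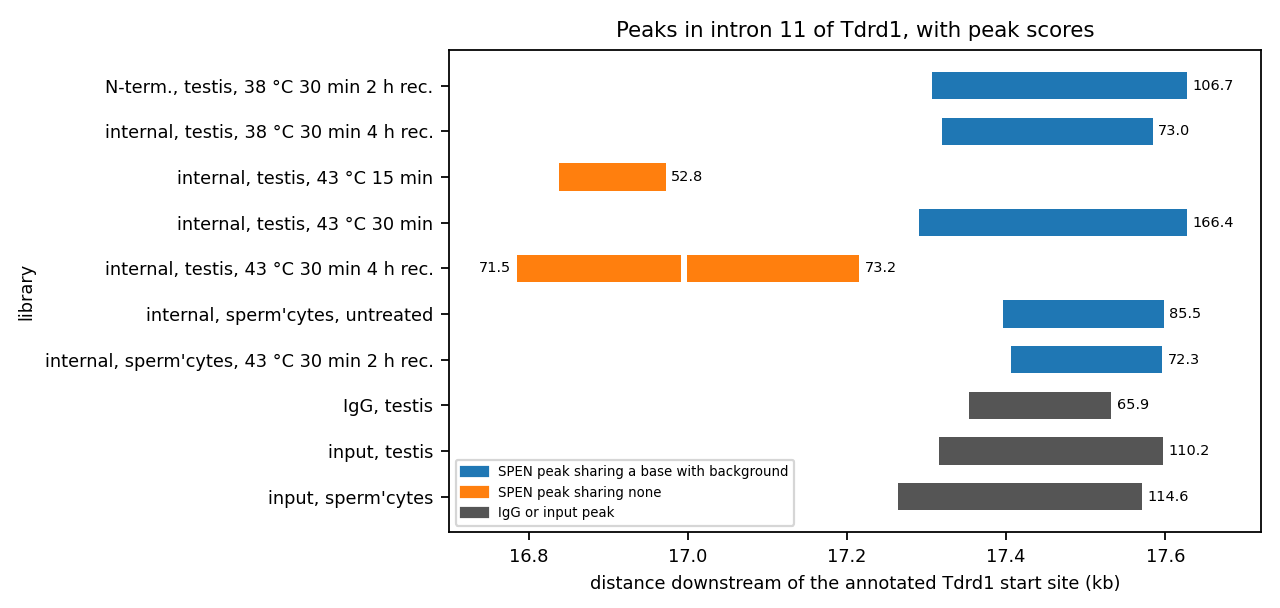
Peaks in intron 11 of Tdrd1 by library, placed by distance downstream of the annotated TSS in kb, with the peak score beside each bar. IgG and input peaks (grey) coincide with 5 SPEN peaks (blue), and the 3 peaks that share no base with them (orange) sit upstream in 2 libraries at 43 °C.

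Tdrd9 and Mov10l1 encode RNA helicases, the first with a Tudor domain and the second known to process piRNA precursors. Mov10l1 had 1 assigned peak, in intron 15 of 26 in spermatocytes at 4 h of recovery (chromosome 15, 89015512 to 89015689, 32606 bp downstream of the TSS, score 55.52). It was the one peak of that library assigned to any of the 10 genes within 50 kb, a distance at which 13% of all genes had one in that list. Its score was exceeded by 68.4% of that list. The same library had a higher-scoring peak in intron 21 of Mov10l1 (89024690 to 89025075, score 96.06), assigned to Panx2. The untreated testis list had one at another place in the gene, in an IAPEz-int retroviral element (89036943 to 89037179, score 70.9), also assigned to Panx2.

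Tdrd9 had no assigned peak, but its body held 6 peaks that the annotation gave to Rd3l or Aspg. In intron 23 of 35, the testicular library after 30 min at 38 °C (score 80.65), the untreated testis list (88.82) and IgG (61.97) shared a site on chromosome 12 (112035728 to 112036058). Elsewhere in the gene, spermatocytes at 4 h of recovery had a peak in intron 9 (score 68.24). The untreated testis list had peaks in intron 13 (60.25) and in an L1Md_T element (57.71). Counting gene bodies in this way, 6 of the 10 genes (Ddx4, Dazl, Tdrd1, Tdrd9, Mov10l1 and Asz1) contained an antibody-specific SPEN peak, against 35.2% of all genes. The 10 genes are longer than most, with a median length of 49071 bp against 17729 bp for all genes, and the part of length in this count was not tested. Of the 24 peaks in their bodies, 9 were assigned to another gene.

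The promoters differed in their content of CpG dinucleotides. The 300-base window around the TSS, with 250 bases before and 50 after, held 38 CpG dinucleotides at Ddx4 and 28 at Dazl, the highest counts among the 12 windows of the 9 genes. The other 10 windows held 0 to 25, and the median of 20488 protein-coding windows was 14. Ddx4 thus stood at percentile 93.7 and Dazl at percentile 81.5. Over all promoters the share of windows whose gene had a peak within 5 kb in the untreated testis list was 11.8% for 0 to 5 CpG dinucleotides, 27% for 21 to 30 and 34.9% for 31 or more. Mael with 24 and Tdrd1 with up to 25 CpG dinucleotides had no such peak.

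The E-box was found in the windows of 6 of the 9 genes: Ddx4, Piwil1, Mael, Tdrd1, Tdrd9 and Mov10l1. It was present in 9.16% of the 16853 protein-coding genes with a window. By window it was in 7 of the 12, against 8.03% of all windows and 11% of those with 10 to 38 CpG dinucleotides. Overlapping windows of Tdrd1 hold the same copy of the motif, which was counted in each of them. The motif was chosen after the peaks were seen. Piwil1 had 2 copies, 179 and 154 bases before its TSS, and Tdrd9 2 copies, 165 and 95 bases before. In the list of pathway genes described below, 8 of 28 genes with a window had the motif (28.6%). A peak covered the motif at Ddx4 in the untreated testis list. None covered it at the other 5 genes, which had no peak within 5 kb of the TSS in any library. The share of windows whose gene had a peak within 5 kb was 25.2% with the motif and 20.8% without it. These shares were not matched for CpG count, with which the share with a peak also rose, and their difference was not tested. The E2F-type motif TCCCGC, searched on both strands, was in 2 of the 12 windows (Ddx4 and Mael) and in 26.5% of all windows.

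**Figure D5:**
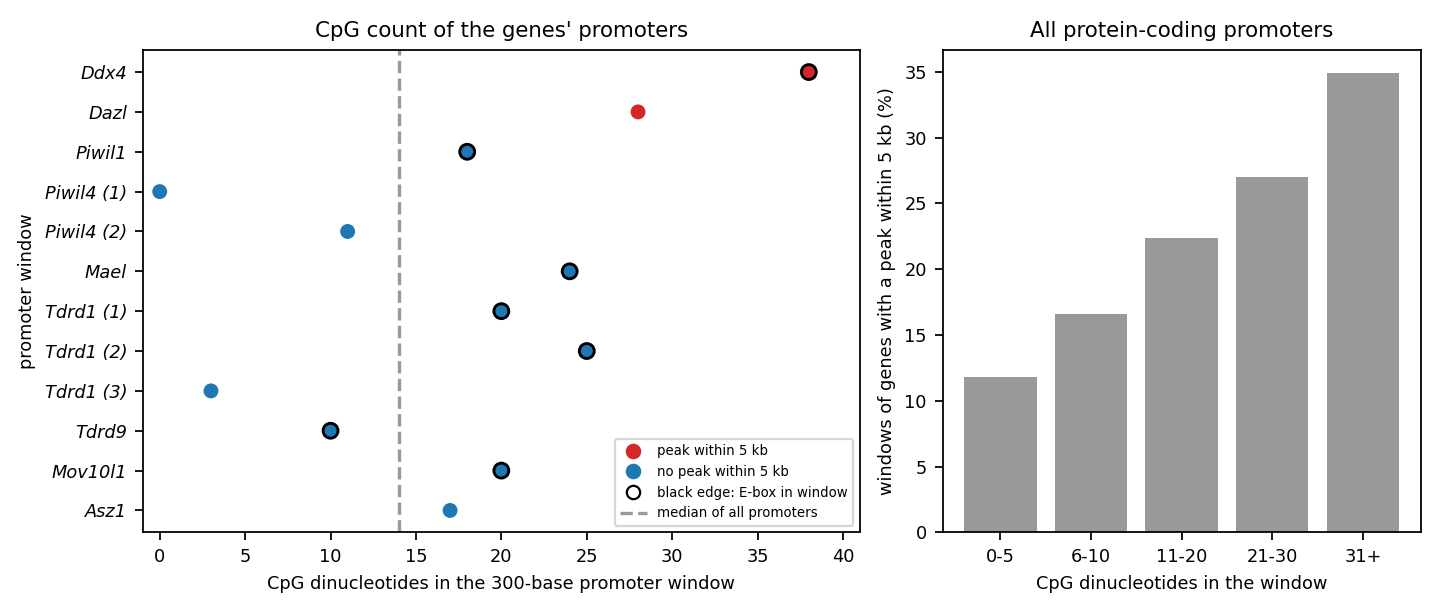
Left, number of CpG dinucleotides in the 300-base promoter windows, with numbers in brackets where a gene has several; red marks genes with a peak within 5 kb in the untreated testis list, and a black edge an E-box. Right, share of all protein-coding windows whose gene had such a peak, by CpG count. Ddx4 (38) and Dazl (28) have the most CpG dinucleotides, and the share rises to 34.9%.

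A list of 38 other genes of the same pathways was examined in the same way, of which 36 were in the gene universe (Dnmt3c and Spocd1 were not). In the untreated testis list, 13 of the 36 (36.1%) had an antibody-specific peak within 5 kb, against the 20.2% of all genes, a difference that was not tested. By class these were 4 of 11 genes of piRNA biogenesis and PIWI partners, 4 of 6 genes of Tudor proteins, 3 of 12 genes of other germ granule components and 2 of 3 transcription factor genes. None of the 4 genes of nuclear silencing had one. The median of their highest scores was 66.7, close to the 66.9 of all genes with a peak.

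The highest scores in the list were those of Tdrkh, Boll and Fkbp6. Tdrkh encodes a mitochondrial Tudor protein that takes part in piRNA trimming, and had a peak 101 bp downstream of its TSS (score 136.3). Boll encodes a germ cell RNA-binding protein related to DAZL, and had 3 peaks at its promoter, the highest at 122.3. Fkbp6 encodes a co-chaperone needed for piRNA loading (103.49). Lower scores were found at Wdr77, a partner of the arginine methyltransferase PRMT5 (83.37), and at Tdrd6, a chromatoid body protein (79.65). They were lower still at the transcription factor gene Tcfl5 (67.16) and at Smg6 (66.65), a nuclease of nonsense-mediated decay, whose peak was also annotated to the start of its neighbour Srr.

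Rnf17, a Tudor protein gene, was the 1 of the 36 pathway genes with an antibody-specific peak within 5 kb in any other SPEN library. In those libraries together 4.26% of all genes had one. A site in its first intron on chromosome 14, 843 to 878 bp downstream of the TSS, was called with the internal antibody after 15 min at 38 °C (score 55.79), after 30 min there (83.45) and with 4 h of recovery (60.72) in testicular cells, and after 30 min at 43 °C in spermatocytes (54.66). In 3 of these 4 lists it was annotated as a B1_Mus1 SINE. The untreated testicular library of the same antibody had its Rnf17 peak at the promoter, 34 bp upstream of the TSS (score 50.46), and no peak at the SINE. The remaining SPEN libraries, most of them heated, had no antibody-specific Rnf17 peak within 5 kb. Among them were all testicular libraries at 43 °C and the internal antibody at 2 h of recovery from 38 °C. The N-terminal libraries and spermatocytes untreated or at 2 h or 4 h of recovery also lacked one. IgG and inputs had none within 5 kb.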

How the data were processed

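The files are peak lists and annotated copies of them, 1 pair for each of the 19 libraries, and both copies held the same peaks. Per the submitters' processing notes, Bowtie2, SAMtools and HOMER were used on mm10, with versions not given in the sources used here. One peak list was deposited per library, and its peaks are named after MACS, per the file headers; the caller, its version and control are not given in the sources used here. Scores are deposited by the authors without a stated scale, are at least 50.0 in every list, and are positioned within a list only; scores of different lists that stand side by side are values, not a comparison. The pathway genes named were the exception, chosen by score over all SPEN lists. Distance to the TSS and the assigned gene are the deposited HOMER annotation, per the file headers. Read depth is unknown. Nothing in the labels counts animals, and replicate error cannot be had.

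Background overlap (at least 1 bp), nearest peaks and counts were computed with Python 3.11.15, pandas 2.3.3 and SciPy 1.17.1, and the overlap code was tested on simulated data. All 10 genes are named. Pathway genes outside them are named when among the 8 with the highest antibody-specific score within 5 kb. Likeness means the same set of libraries and the 2 closest scores. The genes, lists and windows were chosen with earlier results of these data known. No test of a condition was possible with 1 library each, and alternatives varied background, score, window, list length and gene assignment. The motifs were chosen after the peaks were seen.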

Additional observations from a re-analysis of the deposited data

Results flagged for a closer look

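In all, 3 peaks were assigned to these genes beyond 50 kb of the TSS, outside the windows used above, while the background lists held none there. The spermatocyte library at 4 h of recovery had a peak 102334 bp upstream of Dazl in an RLTR28B element (score 50.9). The list of untreated testicular cells (internal antibody) had one 52123 bp upstream of Dazl in a TG simple repeat (score 50.16) and one 54580 bp downstream of the Piwil1 start (score 76.89), which lies in a GGA simple repeat inside an intron of another gene. They share no base with a peak of any other library, and the peak just inside the 50 kb limit was that of Dazl at 43427 bp (score 50.73).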

How the results depend on the processing

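Of 43 alternatives, 34 left the counts within 1.5 times their value. With the 1000 highest-scoring peaks of each list, the number of genes with an antibody-specific peak became 0 within 5 kb (2 otherwise) and 0 within 50 kb (3 otherwise) in the untreated testis list, because Ddx4 ranks 1141 and Dazl 1420 there, and 0 in the other 15 SPEN libraries (2 otherwise). Those 15 also gave 0 at a score of at least 75 or 100 and 1 when a background peak within 500 bp counted (Mov10l1). Leaving out spermatocytes at 4 h of recovery, chosen after seeing the data, also gave 1 (Tdrd1). Another alternative counted every peak near a start site, or near a gene end where no start was found, whichever gene it was assigned to. It gave 9 genes within 50 kb in untreated testicular cells (all but Mov10l1), where 66% of all genes had one. In the other 15 libraries it gave 4 (Ddx4, Mov10l1, Tdrd1 and Tdrd9), where 32.3% of all genes had one. Within 5 kb the counts were still 2 and 0. No paired analysis was possible because each group has 1 library. Without read totals, a missing peak cannot be told from a shallow library.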
